A study of Mus musculus with 30 samples.

Results

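The genes described here encode matrix metalloproteinases (Mmp), their tissue inhibitors (Timp), the disintegrin metalloproteinases (Adam, with Adamts1 and Adamdec1) and the cathepsins (Cts). They were chosen by a rule on gene names, with earlier results of these data known. A gene was included where its symbol was Mmp, Timp, Adam, Adamts or Cts followed only by digits or lower-case letters. Only probe sets annotated to a single symbol were used, and a gene that had several was represented by the brightest of them, by mean over the 30 arrays. This gave 48 of the 8251 genes measured, namely 13 Mmp, 3 Timp, 18 Adam and 14 Cts genes, of which 12 had more than 1 probe set. No gene was removed for a low value, so all 48 entered every test. Timp4 was not among the named probe sets and is not analysed here.

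Expression was measured in left ventricle of C57BL/6 mice at 2 months of age on Affymetrix MG_U74Av2 arrays. The 8 groups were HCM females and HCM males fed casein (4 arrays each), wild-type females and males fed casein (4 each), HCM females and HCM males fed soy (3 each), and wild-type females and males fed soy (4 each). The labels give the genotype as HCM without expanding it, and they name no mutation, transgene or promoter. Each array carried RNA combined from 2 animals, so p-values measure the spread between these pools and not between single animals. In what follows, values are deposited log2 expression, on which a difference of 1 is a 2-fold change, errors of differences are standard errors (SE), and a gene is said to rise or fall where limma gave a Benjamini-Hochberg adjusted p under 0.05 over all 8251 genes. Positive differences mean higher in HCM, on casein, or in females. Sexes were combined where a group is given by its lowest, median and highest array (8 arrays, or 6 for soy HCM).

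Matrix metalloproteinases are zinc enzymes that cut collagens and other matrix proteins outside the cell, and the Timp proteins bind and block their active site. Adam proteins are mostly membrane-bound relatives, of which some release growth factors and receptors from the cell surface and others act in sperm. Cathepsins are mostly lysosomal proteases, with cysteine types such as B, L, S and Z, aspartic types D and E, and serine types A and G. In heart muscle, the balance between metalloproteinases and their inhibitors is known for setting the turnover of interstitial collagen, and cathepsin S is known chiefly from antigen-presenting cells.

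Array medians lay between 6.11 and 6.19 on casein and between 6.20 and 6.22 on soy. Spiked poly-A control transcripts averaged 5.94 to 6.41 on the 8 casein HCM arrays, against 4.34 to 4.96 on the other 22. The casein wild-type arrays fell into sets of 4 by the difference between the control probe sets BioD and BioC, which was 2.17 to 2.44 in replicates 1 and 2 (set A) and 0.499 to 0.629 in replicates 3 and 4 (set B). The same difference was 1.59 to 1.75 in casein HCM, 2.35 to 2.45 in soy HCM and 1.56 to 1.86 in soy wild type, so by these controls soy HCM overlapped casein wild-type set A. For the block on array set below, each combination of diet and genotype was taken as a set, with casein wild type divided into A and B. So defined, genotype and diet cannot be told apart from array set, except as far as casein wild type can be taken as either set. A pair of soy wild-type arrays also stood apart. Male replicate 2 had the lowest mean of 30 for the cardiomyocyte, macrophage and endothelial marker lists and the highest for the neutrophil, lymphocyte and mast cell lists. Female replicate 2 had the highest macrophage list mean, at 7.32. The 8 ventricular cardiomyocyte markers averaged 11.8 to 12.8 over the arrays, and they also moved with the groups. In HCM 5 of 8 were higher and 1 lower on casein, and 8 of 8 were higher on soy, where the list means did not overlap (12.39 to 12.49 in HCM, 11.80 to 12.24 in wild type). On casein all 8 were higher than on soy in wild type, and 7 were higher and 1 lower in HCM. Of 4 atrial markers, 3 were higher in HCM on casein (7.51 to 8.58 in HCM, 6.82 to 7.65 in wild type) and 2 were lower on soy. Of 8 endothelial markers, 4 were lower in HCM on casein (7.59 to 7.86 in HCM, 7.85 to 8.03 in wild type) and 3 were higher on soy. The part of these markers in the results below was not tested.

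The question put by the design is how the ventricles of HCM mice differ from wild type, and whether diet or sex alters that difference. On casein, HCM hearts had higher cathepsin S, Z and C, higher Timp3 and higher Mmp3, and lower Timp1, Adam19 and Adam28. On casein 13 members rose and 8 fell, which is 43.8% of the 48, while 49.6% of all genes passed the same test (26.9% higher and 22.7% lower). On soy 8 members rose, led by Timp2, Adam19 and Adam3, and 5 fell, led by Ctsg, Adam5 and Adam11. These make 27.1% of the members, against 25.0% of all genes (12.3% higher and 12.7% lower). The shares are close to those of the whole array, so the counts as such say nothing particular about proteases, and the account below is of individual genes. The median absolute HCM effect of the members was 0.13 on casein, against 0.16 over all genes, and 0.09 on soy, against 0.12 over all genes.

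The HCM effect itself differed with diet for 17 members, 35.4% of the 48, where 45.1% of all genes passed (25.0% higher and 20.1% lower). The effect on casein exceeded that on soy for 10 members and was below it for 7. Among these, Adam28, Adam19, Adam3 and Cts7 fell in HCM on casein and rose in HCM on soy, while Adam5 rose on casein and fell on soy. Averaged over sex and diet, the HCM effect passed for 11 members, 22.9%, against 34.1% of all genes (18.7% higher and 15.4% lower). Ctss, Ctse, Timp3, Ctsc, Mmp3 and Adam15 rose, and Timp1, Adam11, Mmp12, Mmp14 and Ctsd fell. Only 5 of these calls (Adam11, Ctse, Ctss, Mmp3 and Timp1) held whichever single array was left out. Those of Ctsc and Mmp12 were each lost without any of 19 arrays, and those of Adam15 and Timp3 without any of 18. The Mmp14 call was lost without any of 8 arrays and the Ctsd call without any of 5. The strongest by adjusted p were Mmp3 (0.18 ± 0.04, limma adjusted p = 0.00064) and Ctse (0.34 ± 0.07, adjusted p = 0.000671). Mmp3 was low on every array, between 4.09 and 4.73. With every array centred on its median, the 11 calls divided into 4 higher and 7 lower, in place of 6 and 5.

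**Figure D1:**
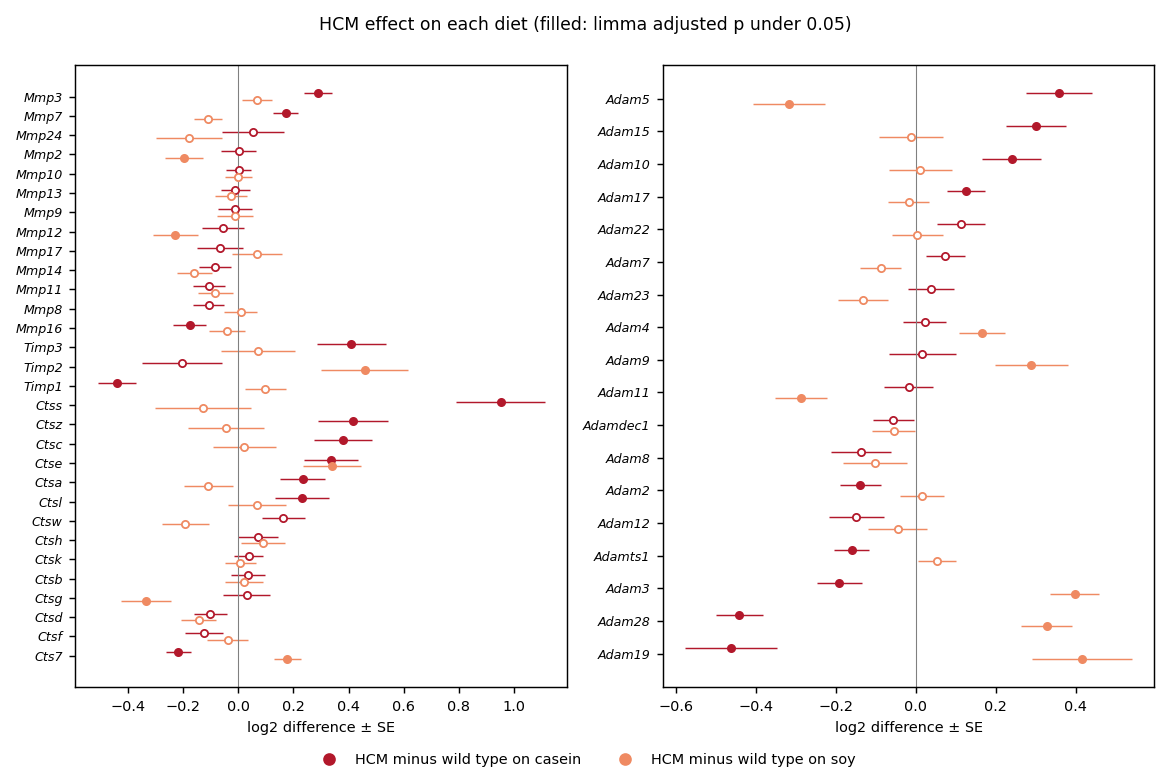
HCM minus wild type (log2 difference with its SE, horizontal axis) for each of the 48 members on casein and on soy, with filled points for a limma adjusted p under 0.05. Ctss has the largest difference, 0.95 on casein, and Adam28, Adam19 and Adam3 lie on opposite sides of 0 on the 2 diets.

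Among the Mmp genes, changes in HCM were small. Mmp3 encodes stromelysin-1, which cuts proteoglycans and activates other pro-metalloproteinases. Its lowest, median and highest arrays were 4.29, 4.55 and 4.73 in casein HCM, against 4.09, 4.26 and 4.39 in casein wild type. On soy they were 4.27, 4.41 and 4.51 in HCM, against 4.17, 4.32 and 4.45 in wild type. The casein groups overlapped only through a single low male HCM array, and the soy groups overlapped broadly. All Mmp3 values lay well below the array medians, as did those of Mmp2 and Mmp7. Mmp3 rose by 0.29 ± 0.05 on casein (limma adjusted p = 3.77e-05) and differed by 0.07 ± 0.06 on soy (adjusted p = 0.391), and the difference of these effects was 0.22 ± 0.08 (adjusted p = 0.0185). The rise was 0.22 against casein wild-type set A and 0.36 against set B.

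Mmp7, matrilysin, rose by 0.17 ± 0.05 on casein (limma adjusted p = 0.00336), with 4.23 to 4.39 in HCM and 4.02 to 4.27 in wild type. Mmp16, a membrane-type metalloproteinase, fell by 0.18 ± 0.06 there (adjusted p = 0.017). The other 10 Mmp genes did not pass on casein, among them the gelatinases Mmp2 (0.00 ± 0.06) and Mmp9 (-0.01 ± 0.06) and Mmp14 (-0.08 ± 0.06), the membrane enzyme that activates pro-Mmp2. On soy no Mmp gene rose and 2 fell. Mmp2 had 4.68, 4.73 and 4.86 in soy HCM, against 4.76, 4.93 and 5.12 in soy wild type, and fell by 0.20 ± 0.07 (adjusted p = 0.0364). The groups overlapped at their edges. The other Mmp2 probe set also fell on soy, by 0.37, but it rose by 0.22 on casein, where the chosen probe set was flat. Mmp12, macrophage elastase, fell by 0.23 ± 0.08 on soy (adjusted p = 0.0399), while its other probe set rose by 0.37, so its direction depends on the probe set. The soy calls for Mmp2 and Mmp12 were each lost when any of 8 single arrays was left out. The collagenases Mmp8 and Mmp13 and stromelysin-2, Mmp10, did not pass in either diet.

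The Timp genes moved apart from each other. Timp1, an inducible secreted inhibitor, had 8.19, 8.35 and 8.98 in casein HCM, against 8.64, 8.82 and 9.03 in casein wild type. On soy Timp1 had 9.06, 9.23 and 9.33 in HCM, against 8.98, 9.11 and 9.27 in wild type. All casein HCM arrays but a single female, replicate 2 at 8.98, lay below every casein wild-type array, whereas the soy groups overlapped. Timp1 fell by 0.44 ± 0.07 on casein (limma adjusted p = 7.84e-06) and differed by 0.10 ± 0.08 on soy (adjusted p = 0.353). The effects differed by -0.54 ± 0.10 (adjusted p = 0.000111). By group, Timp1 averaged 8.53 ± 0.30 in casein HCM females and 8.26 ± 0.07 in casein HCM males, against 8.90 ± 0.10 in casein wild-type females and 8.77 ± 0.10 in casein wild-type males (SD, n = 4 each). The fall was 0.48 against wild-type set A and 0.40 against set B. The other Timp1 probe set differed by -0.06 on casein and -0.06 on soy and passed in no comparison.

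Timp2, a constitutive inhibitor that also takes part in the activation of pro-Mmp2, behaved otherwise. It had 7.90, 8.04 and 8.16 in soy HCM, against 7.44, 7.59 and 7.73 in soy wild type, so that every soy HCM array lay above every soy wild-type array. On casein it had 6.96, 7.26 and 7.50 in HCM, against 6.34, 7.49 and 8.05 in wild type, and the groups overlapped fully. Timp2 rose by 0.46 ± 0.16 on soy (limma adjusted p = 0.0333), differed by -0.20 ± 0.15 on casein (adjusted p = 0.248), and its effects differed by -0.66 ± 0.21 (adjusted p = 0.0129). The casein wild-type arrays were spread widely, since set A averaged 7.84 ± 0.19 and set B 7.06 ± 0.49 (SD, n = 4 each), and the HCM difference on casein was -0.59 against set A and 0.18 against set B. The soy call was lost without any of 7 single arrays. The remaining Timp2 probe sets did not follow it on soy, with -0.36, which passed, and -0.28, which did not.

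Timp3, the inhibitor that is bound to the matrix and also blocks Adam17, had 8.75, 9.03 and 9.32 in casein HCM, against 8.06, 8.59 and 9.11 in casein wild type. On soy Timp3 had 8.57, 8.62 and 8.70 in HCM, against 7.96, 8.56 and 9.03 in wild type. The casein HCM arrays were high with overlap, and the soy HCM arrays lay within the wide soy wild-type range. Timp3 rose by 0.41 ± 0.12 on casein (limma adjusted p = 0.00746), by 0.52 against set A and 0.30 against set B. On soy it differed by 0.07 ± 0.13 (adjusted p = 0.729), and the difference between diets did not pass (0.34 ± 0.18, adjusted p = 0.133). Without male soy wild-type replicate 2 that difference was 0.42 and passed (adjusted p = 0.0364), and without both soy wild-type replicate 2 arrays it was 0.36 (adjusted p = 0.0656). Of 10 fibroblast markers, 4 were higher and 2 lower in HCM on casein, with list means of 7.96 to 8.41 in casein HCM and 7.87 to 8.20 in casein wild type. Of 6 smooth muscle and pericyte markers, 5 were higher on casein, and their list means did not overlap, with a lowest mean of 7.63 in casein HCM and a highest of 7.44 in casein wild type. The part of these markers in the Timp results was not tested.

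**Figure D2:**
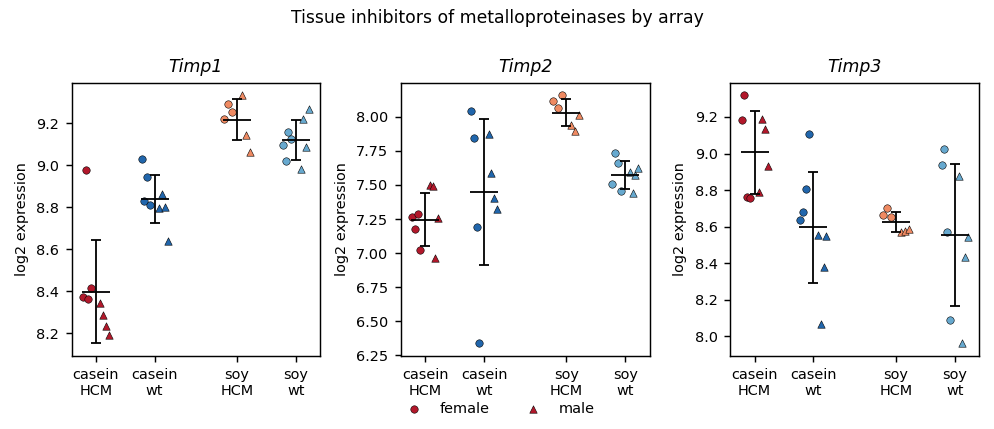
Log2 expression of Timp1, Timp2 and Timp3 on each array (vertical axis) by diet and genotype, with circles for females, triangles for males and bars for the mean with its SD. Timp1 is lowest in casein HCM except for a single female array at 8.98, Timp2 is highest in soy HCM, and casein wild type spans 6.34 to 8.05 for Timp2.

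Most members with opposite HCM effects by diet were Adam genes. Adam28 and Adam19 each had a single probe set, as did Cts7, so no other reading of these genes could be compared. The probe sets read for Adam28, Adam3, Adam5 and Cts7 are of the type that Affymetrix names _r_at. How specific they are to these genes was not tested. Adam28, a metalloproteinase known from lymphocytes and epididymis, had 8.91, 9.19 and 9.47 in casein HCM, against 9.49, 9.63 and 9.84 in casein wild type. On soy it had 8.63, 8.75 and 8.90 in HCM, against 8.28, 8.44 and 8.59 in wild type. The groups did not overlap on either diet, and HCM was the lower group on casein and the higher on soy. Adam28 fell by 0.44 ± 0.06 on casein (limma adjusted p = 5.89e-07) and rose by 0.33 ± 0.06 on soy (adjusted p = 0.000597), with a difference of -0.77 ± 0.09 (adjusted p = 7.45e-08). The fall was 0.51 against wild-type set A and 0.37 against set B. Of 9 lymphocyte markers, set beside Adam28 because it is known from those cells, 4 were higher and 1 lower in HCM on casein and none passed on soy. Their list means were 6.02 to 6.26 in casein HCM, 5.90 to 6.13 in casein wild type, 5.91 to 6.07 in soy HCM and 5.92 to 6.38 in soy wild type. Their part in the result was not tested. In bulk tissue, fewer cells of a type and less RNA per cell cannot be told apart.

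Adam19, meltrin beta, which is required for heart valve and septum development in mice, fell by 0.46 ± 0.12 on casein (limma adjusted p = 0.00158) and rose by 0.42 ± 0.13 on soy (adjusted p = 0.0161). Its arrays read 5.98, 6.48 and 6.56 in casein HCM, against 6.46, 6.74 and 7.60 in casein wild type, and 6.40, 7.04 and 7.42 in soy HCM, against 6.32, 6.58 and 6.99 in soy wild type. The groups overlapped on both diets. The casein wild-type arrays separated by sex, with 6.52 ± 0.05 in females and 7.16 ± 0.32 in males (SD, n = 4 each) and no overlap, while casein HCM females averaged 6.40 ± 0.27 and males 6.35 ± 0.25. The sex difference within casein wild type was noticed in the values and was not tested. The soy call of Adam19 was lost without soy HCM male replicate 2, male replicate 3 or female replicate 3.

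Adam3, cyritestin, a sperm surface protein, had 7.67, 7.80 and 7.95 in soy HCM, against 7.35, 7.43 and 7.49 in soy wild type, without overlap. It rose by 0.40 ± 0.06 on soy (limma adjusted p = 4.32e-05) and fell by 0.19 ± 0.06 on casein (adjusted p = 0.00643). The other Adam3 probe set gave 0.47 on soy and -0.27 on casein, and passed in both. Adam5, a further sperm-associated gene, rose by 0.36 ± 0.08 on casein (adjusted p = 0.000797) and fell by 0.32 ± 0.09 on soy (adjusted p = 0.0111), but its other probe set differed by -0.11 on casein and 0.04 on soy and passed in neither. Over all arrays the chosen Adam5 probe set averaged 9.62 and the other 3.74, so the direction of Adam5 depends on the probe set. Because several Adam genes are known from testis, 6 testis markers were set beside them. On soy 1 rose and 1 fell, and on casein 1 rose. Their list means were 5.47 to 5.66 in casein HCM, 5.25 to 5.55 in casein wild type, 5.13 to 5.32 in soy HCM and 5.17 to 5.49 in soy wild type, and their part in these results was not tested.

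Among the sheddases, Adam15 rose by 0.30 ± 0.07 on casein (limma adjusted p = 0.00151), with 7.35, 7.65 and 7.88 in HCM, against 7.18, 7.33 and 7.49 in wild type. A single casein HCM male fell within the wild-type range. Adam10, the sheddase of Notch and cadherins, rose by 0.24 ± 0.07 there (adjusted p = 0.00826), and its other probe set rose as well, by 0.39. The rise was 0.07 against casein wild-type set A and 0.41 against set B. Adam17, which releases tumour necrosis factor, rose by 0.13 ± 0.05 (adjusted p = 0.03), a call lost without any of 6 single arrays. On soy none of Adam10, Adam15 and Adam17 passed, while Adam9 rose by 0.29 ± 0.09 and Adam4 by 0.17 ± 0.06, and Adam11, a protein without a working protease site, fell by 0.29 ± 0.07 (adjusted p = 0.00248). Adam4 was low, at 3.42 to 3.84 in soy HCM and 3.42 to 3.55 in soy wild type, and its call was lost without any of 6 single arrays. Adamts1, a secreted aggrecanase, fell by 0.16 ± 0.04 on casein (adjusted p = 0.0034), and Adam2, a sperm fertilin subunit, fell by 0.14 ± 0.05. Adamts1 was also low, at 3.14 to 3.28 in casein HCM and 3.23 to 3.51 in casein wild type. Adam7, Adam8, Adam12, Adam22, Adam23 and Adamdec1 did not pass in HCM on either diet.

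**Figure D3:**
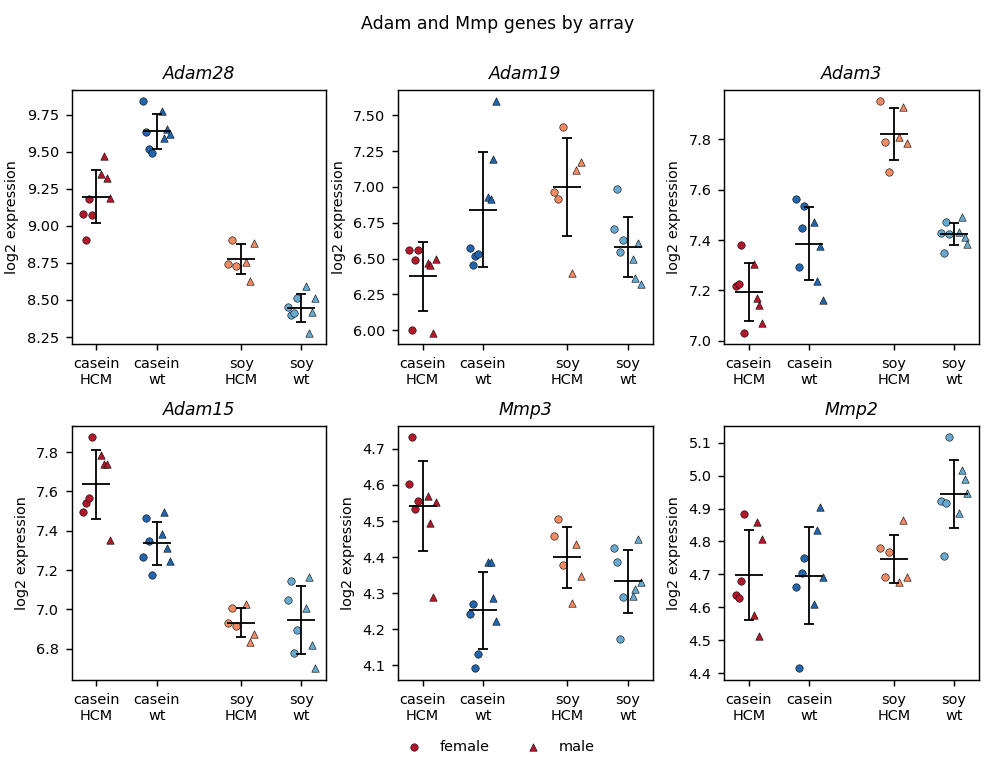
Log2 expression of Adam28, Adam19, Adam3, Adam15, Mmp3 and Mmp2 on each array (vertical axis) by diet and genotype, with circles for females, triangles for males and bars for the mean with its SD. Adam28 in casein wild type (9.49 to 9.84) and in soy wild type (8.28 to 8.59) does not overlap, and casein wild-type males lie above females for Adam19.

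Of the 14 cathepsins 6 rose and 1 fell in HCM on casein. That is 50% of them, against 49.6% of all genes (26.9% higher and 22.7% lower). Ctss, cathepsin S, which degrades the class II invariant chain and is also an elastase, had 7.20, 7.79 and 7.97 in casein HCM, against 6.36, 6.64 and 7.05 in casein wild type. On soy it had 6.59, 6.83 and 7.30 in HCM, against 6.39, 6.93 and 8.24 in wild type. Every casein HCM array lay above every casein wild-type array, whereas the soy arrays overlapped, with female wild-type replicate 2 the highest of all 30. Ctss rose by 0.95 ± 0.16 on casein (limma adjusted p = 1.75e-05), differed by -0.13 ± 0.17 on soy (adjusted p = 0.618), and the effects differed by 1.08 ± 0.24 (adjusted p = 0.000496). Both sexes showed it, with 7.80 ± 0.25 in casein HCM females and 7.55 ± 0.30 in casein HCM males, against 6.70 ± 0.20 in casein wild-type females and 6.74 ± 0.32 in casein wild-type males (SD, n = 4 each). The rise was 1.15 against set A and 0.75 against set B. Without both soy wild-type replicate 2 arrays the difference between diets was 0.97 ± 0.16 (adjusted p = 1.28e-05).

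Ctsz, cathepsin Z, a carboxypeptidase, rose by 0.42 ± 0.13 on casein (limma adjusted p = 0.00768), with 5.37, 5.51 and 6.07 in HCM and 4.88, 5.23 and 5.37 in wild type. The 2 groups came within rounding of each other and did not overlap. Its effect on casein exceeded that on soy by 0.46 ± 0.19 (adjusted p = 0.0446), a call lost when any of 18 single arrays was left out. It was 0.53 without both soy wild-type replicate 2 arrays (adjusted p = 0.00385). Ctsc, the dipeptidyl peptidase that activates granule serine proteases, rose by 0.38 ± 0.11 on casein (adjusted p = 0.00392), with 5.96 to 6.62 in HCM and 5.68 to 6.12 in wild type. Its effects differed by 0.36 ± 0.16 between diets (adjusted p = 0.0615), which became 0.38 (adjusted p = 0.00488) without both soy wild-type replicate 2 arrays and 0.29 (adjusted p = 0.111) without the female array alone. The other Ctsc probe sets differed by 0.15 and -0.01 on casein and did not pass. Over the 8 group means, the members most like Ctss were Ctsz (Pearson r = 0.958), Ctsc (r = 0.865) and Mmp3 (r = 0.838), a description over groups that share their arrays between genes.

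Macrophage markers were mixed. On casein 5 of 13 rose in HCM, 3 fell and 5 did not pass, with a median difference of 0.06, and on soy none passed. Lyz2 rose by 0.73 ± 0.17, C1qb by 0.58 ± 0.16, C1qa by 0.35 ± 0.13, Adgre1 by 0.33 ± 0.08 and Ptprc by 0.23 ± 0.09, while Csf1r fell by 0.30 ± 0.08, Itgam by 0.20 ± 0.05 and Fcgr3 by 0.14 ± 0.05. The list averaged 6.83 to 7.10 in casein HCM, 6.78 to 6.88 in casein wild type, 6.73 to 6.84 in soy HCM and 6.65 to 7.32 in soy wild type. The array with the highest list mean, soy wild-type female replicate 2, was also the highest for Ctss. The markers' part in the result was not tested.

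The promoter windows of Ctss, Ctsz, Mmp3 and Timp1 are shown because the first 3 rose together in HCM on casein while Timp1 fell. They are the 250 bases before the RefSeq transcript start on build GRCm38.p6, written 5′ to 3′ on the gene's strand, with capitals marking matches, on either strand, to the motifs searched. These were the AP-1 site TGANTCA, the core of the interferon-stimulated response element, and the GC box GGGCGG. The windows lie at chr3:95526536-95526785 (plus strand), chr2:174439040-174439289 (minus strand), chr9:7445572-7445821 (plus strand) and chrX:20869916-20870165 (plus strand).
Ctss: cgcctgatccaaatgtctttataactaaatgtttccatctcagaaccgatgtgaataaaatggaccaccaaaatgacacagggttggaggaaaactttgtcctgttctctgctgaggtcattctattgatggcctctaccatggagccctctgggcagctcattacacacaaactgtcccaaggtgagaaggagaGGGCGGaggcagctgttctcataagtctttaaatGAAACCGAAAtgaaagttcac
Ctsz: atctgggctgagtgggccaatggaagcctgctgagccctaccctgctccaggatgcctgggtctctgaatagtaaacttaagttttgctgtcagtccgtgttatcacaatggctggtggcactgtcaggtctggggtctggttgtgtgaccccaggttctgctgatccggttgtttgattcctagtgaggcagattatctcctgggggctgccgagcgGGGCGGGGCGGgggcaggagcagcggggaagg
Mmp3: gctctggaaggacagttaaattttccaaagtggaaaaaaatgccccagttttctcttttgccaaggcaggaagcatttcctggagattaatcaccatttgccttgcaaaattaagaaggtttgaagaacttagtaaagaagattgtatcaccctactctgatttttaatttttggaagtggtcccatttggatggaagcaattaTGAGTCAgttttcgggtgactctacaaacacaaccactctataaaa
Timp1: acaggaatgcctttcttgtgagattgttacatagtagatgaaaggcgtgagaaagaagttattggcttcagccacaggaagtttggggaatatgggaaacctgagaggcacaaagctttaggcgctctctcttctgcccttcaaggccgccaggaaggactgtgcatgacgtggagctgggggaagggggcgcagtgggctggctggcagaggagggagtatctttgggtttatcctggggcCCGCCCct
The Ctss window holds a response element core that begins 21 bases before the start and a GC box 55 bases before it, and the Ctsz window holds 2 overlapping GC boxes. The Mmp3 window holds an AP-1 site 46 bases before the start, and the Timp1 window a GC box on the opposite strand 8 bases before it. Windows were found for 30 of the 48 members. The AP-1 site stood in those of 6 members (Adam19, Mmp3, Mmp7, Mmp10, Mmp12 and Mmp13), 20.0% of 30, against 6.75% of all 32817 windows. The Mmp windows among these lie close together on chromosome 9 (7272264 to 7692089), so they are not separate cases, and Adam19 held the site in 1 of its 3 windows. The response element core stood in those of Ctss and Mmp13, 6.67%, against 2.97% of windows, and the GC box in 16, 53.3%, against 32.7%. Members with several windows had more chances of a match, and a match is a description of the letters only. Of the genes with an AP-1 site, Mmp3 and Mmp7 rose and Adam19 fell in HCM on casein, and Mmp10, Mmp12 and Mmp13 did not pass there.

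Of the other cathepsins, Ctse, an aspartic protease, was the only member that rose in HCM on both diets. Its values were 8.30, 8.90 and 9.03 in casein HCM, against 8.35, 8.41 and 8.66 in casein wild type, and 8.48, 8.52 and 8.60 in soy HCM, against 7.84, 8.17 and 8.84 in soy wild type. The differences were 0.34 ± 0.10 on casein (limma adjusted p = 0.00568) and 0.34 ± 0.11 on soy (adjusted p = 0.0202), with overlap in both. Of its other probe sets, the first gave 0.13 on casein and 0.57 on soy, of which the soy value passed, and the second gave -0.05 and -0.11, which did not. Ctsa, the protective carboxypeptidase of lysosomal galactosidase, rose by 0.23 ± 0.08 on casein (adjusted p = 0.0194), by 0.45 against set A and 0.02 against set B. Ctsl, a cysteine cathepsin of cardiac lysosomes, rose by 0.23 ± 0.10 (adjusted p = 0.0488), a call lost without any of 15 single arrays. Cts7, a cathepsin known from mouse placenta, fell by 0.22 ± 0.05 on casein and rose by 0.18 ± 0.05 on soy. All its values were low, far below the array medians. They were 3.13 to 3.32 in casein HCM, 3.27 to 3.64 in casein wild type, 3.38 to 3.48 in soy HCM and 3.21 to 3.30 in soy wild type. Ctsg, a neutrophil and mast cell granule protease, fell by 0.33 ± 0.09 on soy (adjusted p = 0.00868), with 3.76 to 3.95 in HCM and 3.93 to 4.79 in wild type, where the value of 4.79 came from male replicate 2. Without that array the fall was 0.25 (adjusted p = 0.0104). Of 8 neutrophil markers, 2 were lower and none higher in HCM on soy, with list means of 5.53 to 5.63 in soy HCM and 5.60 to 6.06 in soy wild type. None of 6 mast cell markers passed there, and the part of either list in the result was not tested.

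Ctsb, Ctsd and Ctsk did not pass in HCM on either diet. Ctsb, a major cysteine cathepsin, differed by 0.04 ± 0.06 on casein and 0.02 ± 0.07 on soy, although its remaining probe sets disagreed on casein, at 0.31, 0.17 and -0.33, all of which passed. Ctsd, the main aspartic cathepsin, differed by -0.10 ± 0.06 on casein and -0.14 ± 0.06 on soy and passed only as the mean of both (-0.12 ± 0.04, limma adjusted p = 0.0312). Ctsk, a collagen-degrading cathepsin of osteoclasts, differed by 0.04 ± 0.05 on casein and 0.01 ± 0.06 on soy. Ctsf, Ctsh and Ctsw did not pass either, though the Ctsw effects differed between diets by 0.35 ± 0.12 (adjusted p = 0.0135).

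**Figure D4:**
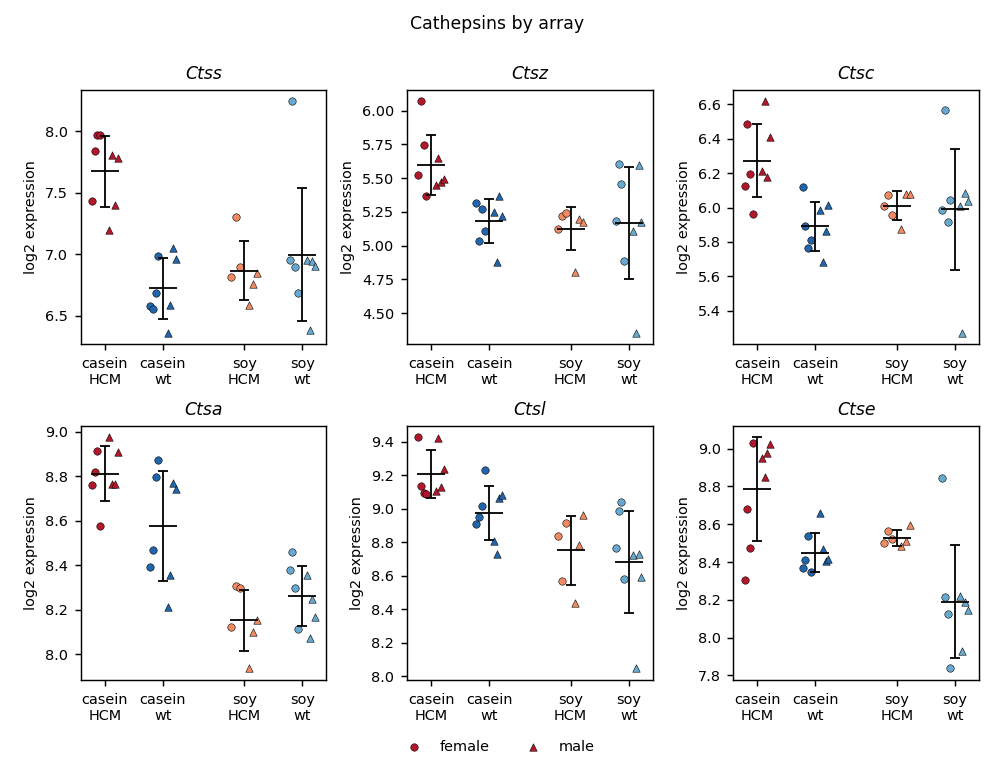
Log2 expression of Ctss, Ctsz, Ctsc, Ctsa, Ctsl and Ctse on each array (vertical axis) by diet and genotype, with circles for females, triangles for males and bars for the mean with its SD. Ctss in casein HCM, 7.20 to 7.97, lies above casein wild type, 6.36 to 7.05, and a single soy wild-type female reaches 8.24.

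These calls were sensitive to how the array sets were treated. All 21 members that passed in HCM on casein kept their sign against each casein wild-type set alone, but not all kept their call. With set A alone 9 members were higher and 11 lower, and Adam10, Adam17, Ctse, Mmp7 and Mmp16 no longer passed. With set B alone 10 were higher and 10 lower, and Ctsz, Timp3, Ctsa, Ctsl and Adam2 no longer passed. Array set was also fitted as a random block (correlation 0.167). That correlation could be estimated only from casein wild-type sets A and B, since the 8 group means take up the differences between the other sets. Passing under this block therefore does not show a gene to be free of an array-set effect. Under it 8 of those 21 passed, with Ctss, Adam5, Adam15 and Mmp3 higher and Adam19, Adam28, Cts7 and Timp1 lower. The adjusted p was then 0.00254 for Ctss, 0.00377 for Mmp3, 0.00174 for Timp1 and 0.0892 for Timp3. On soy only Adam3 passed (adjusted p = 0.0172), and the adjusted p was 0.0578 for Adam28 and 0.244 for Timp2. The difference between diets passed for Adam5, Ctss and Mmp7, which were higher on casein, and for Adam3, Adam19, Adam28, Cts7 and Timp1, which were lower. The share of all genes that passed under this block is not given here. Whether the members lost more calls than other genes therefore cannot be read from these counts.

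Diet was compared within each genotype, and these comparisons use the same HCM and wild-type arrays as those above. On casein, by the chosen probe sets, Ctsa, Ctsb, Ctse, Ctsh and Ctsl were higher than on soy in both genotypes, and Timp1, Mmp9 and Mmp14 were lower in both. The Ctse call in wild type did not pass with either casein wild-type set alone and was lost without any of 5 single arrays. In HCM the Ctse call was lost without any of 8. Neither Ctse call passed with quantile normalization added or with array set as a random block. The other probe sets of Ctsb disagreed with it, as given below. The other probe set of Timp1 went the other way without passing, and that of Mmp9 did not pass. In HCM hearts 20 members were higher and 14 lower on casein, which is 70.8% of the 48, against 62.1% of all genes (31.9% higher and 30.1% lower). In wild-type hearts 11 were higher and 12 lower, 47.9%, against 47.0% of all genes (21.6% higher and 25.4% lower). These shares are again near those of the array, and casein and soy arrays differed in median. With each array centred on its median, the calls divided into 23 higher and 10 lower in HCM and into 16 higher and 7 lower in wild type.

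By role, Mmp2, Mmp7, Mmp9, Mmp11, Mmp12 and Mmp14 were lower on casein in wild-type hearts and Mmp13 and Mmp17 higher. Mmp14 had 6.70, 6.96 and 7.28 in casein wild type, against 7.06, 7.27 and 7.53 in soy wild type. It fell by 0.29 ± 0.06 in wild type (limma adjusted p = 0.000232) and by 0.21 ± 0.06 in HCM (adjusted p = 0.00527), with overlap in both genotypes. Mmp9, gelatinase B, fell by 0.19 ± 0.07 in HCM and 0.19 ± 0.06 in wild type. Its other probe set did not pass and was 0.07 higher on casein in HCM. Mmp12 fell by 0.24 ± 0.08 in wild type and differed by -0.07 ± 0.08 in HCM, where its other probe set fell by 0.90. Mmp2 differed by -0.05 ± 0.07 in HCM and fell by 0.25 ± 0.06 in wild type (adjusted p = 0.00219).

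Timp1 fell on casein by 0.82 ± 0.08 in HCM hearts (limma adjusted p = 3.4e-10), without overlap, and by 0.28 ± 0.07 in wild type (adjusted p = 0.00159). The other Timp1 probe set differed by 0.16 in HCM and 0.15 in wild type and passed in neither. Timp2 fell by 0.79 ± 0.16 in HCM (adjusted p = 9.32e-05), again without overlap, and differed by -0.12 ± 0.15 in wild type. That wild-type value averages opposite ones, since Timp2 rose by 0.26 with casein wild-type set A alone (adjusted p = 0.0204) and fell by 0.51 with set B alone (adjusted p = 0.000555). Of its remaining probe sets, the first rose by 0.32 and the second fell by 0.31 in HCM. Timp3 rose by 0.38 ± 0.13 in HCM (adjusted p = 0.0155) and differed by 0.04 ± 0.12 in wild type.

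The largest diet difference of any member was that of Adam28 in wild type, 1.19 ± 0.06 (limma adjusted p = 2.67e-15), with 0.42 ± 0.06 in HCM (adjusted p = 2.06e-06) and no overlap in either. Adam15 rose by 0.71 ± 0.08 in HCM (adjusted p = 1.96e-08) and 0.39 ± 0.07 in wild type (adjusted p = 9.36e-05), and it too did not overlap in either genotype. Adam3 fell by 0.63 ± 0.06 and Adam19 by 0.62 ± 0.13 in HCM, while neither passed in wild type (-0.04 ± 0.06 and 0.26 ± 0.12). The other Adam3 probe set rose by 0.24 in wild type. Adam5 rose by 0.28 ± 0.09 in HCM and fell by 0.40 ± 0.08 in wild type, and Adam10 fell by 0.36 ± 0.07 in wild type.

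Of the 14 cathepsins, 10 were higher and only Cts7 lower on casein in HCM hearts, where 31.9% of all genes were higher. In wild type 7 were higher and only Ctsk lower, where 21.6% of all genes were higher. With array set as a random block, 6 cathepsins were higher in HCM and 4 in wild type. Ctss rose by 0.81 ± 0.17 in HCM (limma adjusted p = 0.000218) and differed by -0.27 ± 0.16 in wild type (adjusted p = 0.163). Ctsa rose by 0.66 ± 0.09 in HCM and 0.31 ± 0.08 in wild type, Ctsl by 0.45 ± 0.10 and 0.29 ± 0.10, and Ctsh by 0.32 ± 0.08 and 0.34 ± 0.07. In wild type neither Ctsa (0.10) nor Ctsl (0.17) passed with casein wild-type set A alone, and both did with set B alone (0.53 and 0.41). Ctsb rose by 0.26 ± 0.07 in HCM and 0.24 ± 0.06 in wild type on the chosen probe set, but with quantile normalization added its differences were -0.08 and -0.03. The remaining Ctsb probe sets differed by 0.26, 0.10 and -0.25 in HCM, of which the first and last passed. In the same order they differed by -0.02, -0.33 and 0.07 in wild type, where only the fall of 0.33 passed. Groups did not overlap for 18 members between casein and soy in HCM (13 above, 5 below), where 37.9% of all genes did not overlap. In wild type only Adam15 and Adam28 did not overlap, where 11.5% of all genes did not.

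**Figure D5:**
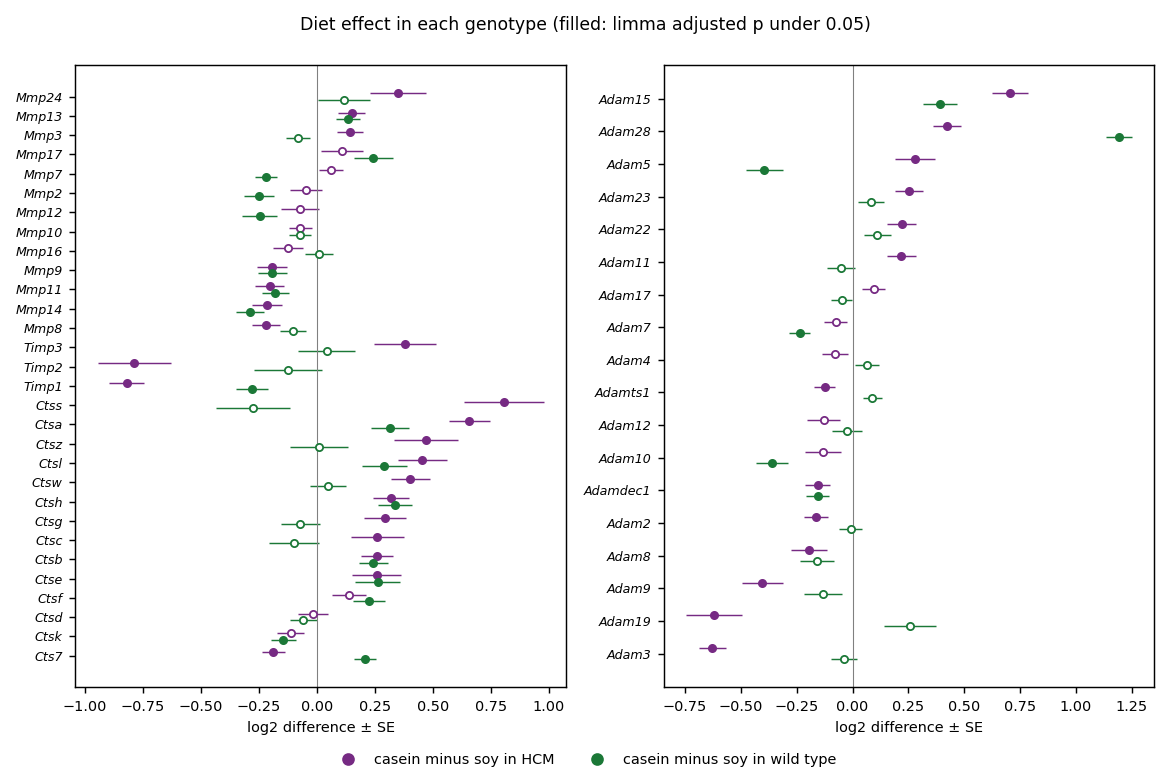
Casein minus soy (log2 difference with its SE, horizontal axis) for each of the 48 members in HCM and in wild type, with filled points for a limma adjusted p under 0.05. Adam28 in wild type has the largest difference, 1.19, and Timp1 and Timp2 in HCM the lowest, -0.82 and -0.79.

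HCM and wild type were separated by all arrays for 3 members on casein (Ctss and Ctsz above, Adam28 below) and 4 on soy (Adam3, Adam28, Cts7 and Timp2, all above). Over all genes 15.1% did not overlap on casein and 8.31% on soy.

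No member differed by sex in the limma test with adjustment over all genes, where 0.267% of genes passed (0.182% higher and 0.0848% lower in females), and 2 members had an unadjusted p under 0.05. Timp1 was 0.11 ± 0.05 higher in females (adjusted p = 0.537) and Ctss 0.22 ± 0.12 higher (adjusted p = 0.572), values that do not show a difference. The HCM effect did not differ between females and males for any member, and for 0% of all genes, with 3 members at an unadjusted p under 0.05. These were Mmp14 at 0.31 ± 0.09, Mmp3 at 0.19 ± 0.08 and Mmp9 at 0.20 ± 0.09, each with an adjusted p of 0.902. Both counts of 0 held in the other settings tried. Adam12 and Mmp10 were the members that passed in none of the comparisons of genotype or diet.

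Other genes of extracellular proteolysis were read from a list of 52, of which 43 were measured. In HCM on casein 11 rose and 8 fell, 44.2% of the 43 against 49.6% of all genes. On soy 1 rose and 5 fell of the 43, a smaller share than the 25.0% of all genes. Serpinf2, which encodes the plasmin inhibitor alpha-2-antiplasmin, rose by 0.59 ± 0.11 on casein and fell by 0.54 ± 0.11 on soy, a difference of 1.13 ± 0.16 (limma adjusted p = 1.58e-06). Serping1, the C1 inhibitor, rose by 0.53 ± 0.09 on casein and differed by -0.09 ± 0.10 on soy. Tpp1, a lysosomal tripeptidyl peptidase, fell by 0.40 ± 0.08 on casein and rose by 0.36 ± 0.08 on soy, and Plaur, the urokinase receptor, fell by 0.36 ± 0.06 on soy. Capn2, the large subunit of a calcium-dependent cytosolic protease, rose by 0.46 ± 0.07 on casein.

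On the same list, 13 genes were higher and 15 lower on casein in HCM hearts, 65.1% against 62.1% of all genes. In wild-type hearts 7 were higher and 16 lower, 53.5% against 47.0% of all genes. These shares are near those of the whole array. Of the 6 measured genes of the plasminogen system, 5 were lower on casein in wild type, where 25.4% of all genes were lower. Serpinf2 had the largest fall among them (-0.88 ± 0.11). Ece1, endothelin-converting enzyme, rose by 0.62 ± 0.08 and Lgmn, the asparagine endopeptidase that processes cathepsins, by 0.46 ± 0.09 in wild type. Tpsb2, a mast cell tryptase, fell on casein by 1.01 ± 0.07 in HCM and 0.62 ± 0.06 in wild type. Of the 6 mast cell markers, to which Tpsb2 also belongs, 4 fell and 1 rose on casein in HCM hearts, and the list averaged 5.12 to 5.32 in casein HCM, against 5.44 to 5.71 in soy HCM. The markers' part in the result was not tested.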

How the data were processed

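Total RNA of left ventricle was hybridised to 30 arrays, each with RNA of 2 animals combined. The values the authors deposited are RMA summaries on a log2 scale, for each probe set on each array. The submitters' processing notes name RMA and Affymetrix Expression Console, with versions not given in the sources used here. Of 12488 probe sets, 66 were controls and 10833 of the other 12422 had a single gene symbol in the platform annotation (396 had several and 1193 none), giving 8251 genes by the probe set of highest mean. Samples were grouped by sex, diet and genotype from the labels. All 30 arrays were fitted in limma 3.58.1 (R 4.3.3, statmod 1.5.0) as 8 group means, with 22 residual and 6.16 prior degrees of freedom, moderated tests and Benjamini-Hochberg adjustment over 8251 genes, and the procedure was tested on simulated data. Array correlations ran from 0.93 to 0.997 and no arrays were identical. The number of arrays limits the precision.

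The members, marker lists and list of other proteolysis genes were chosen with earlier results of these data known. All members may be named. Up to 8 members per comparison were named for the largest change past the threshold, along with a set of well-known members, and up to 4 genes of the other list. For some members further values are given that were singled out after they were seen. Alternatives were another probe set per gene, all probe sets, quantile normalization or median centring added, the dimmest 40% of genes left out, replicate number as a block, array set as a random block, only the groups compared, each casein wild-type set alone, soy without the casein HCM arrays, and each array left out. Leaving out both soy wild-type replicate 2 arrays was chosen after seeing the data. Promoter windows came from RefSeq (GRCm38.p6) by gene symbol.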

Additional observations from a re-analysis of the deposited data

Results flagged for a closer look

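Only 12 members, picked for large HCM effects or differences of effect, were examined, in each of the 6 groups of 4 arrays. In 7 of these 72 tests a single array stood far from the others by Dixon's test, where chance gives about 1 in 20. The 12 members were read on the same arrays, so the tests are not independent. Male soy wild-type replicate 2 and female casein HCM replicate 2 were each flagged for more than 1 member. Ctss was 6.39 in male soy wild-type replicate 2, with the nearest array at 6.91, and 8.24 in female soy wild-type replicate 2, with the nearest at 6.95. The male array also stood apart for Ctsc (5.27, nearest 6.01) and Ctsg (4.79, nearest 4.15). Adam19 was 5.98 in male casein HCM replicate 3 and 6.00 in female casein HCM replicate 2. Timp1 was 8.98 in female casein HCM replicate 2, with the nearest at 8.41.

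The HCM effect differed with diet for 17 members in limma, and each value here is the effect on casein minus that on soy. It was positive for Ctss (1.08, adjusted p = 0.000496), Adam5 (0.68, adjusted p = 6.09e-05), Ctsz (0.46, adjusted p = 0.0446), Ctsg (0.36, adjusted p = 0.0179) and Ctsw (0.35, adjusted p = 0.0135). It was also positive for Ctsa (0.34, adjusted p = 0.0219), Adam15 (0.31, adjusted p = 0.0218), Mmp7 (0.28, adjusted p = 0.00152), Adam11 (0.27, adjusted p = 0.0162) and Mmp3 (0.22, adjusted p = 0.0185). It was negative for Adam19 (-0.88, adjusted p = 0.000133), Adam28 (-0.77, adjusted p = 7.45e-08), Timp2 (-0.66, adjusted p = 0.0129) and Adam3 (-0.59, adjusted p = 2.34e-06). It was negative as well for Timp1 (-0.54, adjusted p = 0.000111), Cts7 (-0.39, adjusted p = 2.48e-05) and Adamts1 (-0.21, adjusted p = 0.00823). Diet, genotype and array set, as defined here, cannot be told apart in these differences.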

How the results depend on the processing

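Array set as a random block left 2 members passing for the mean HCM effect, 1 on soy, 8 on casein, 8 for the difference of effects, 13 for diet in wild type and 16 for diet in HCM, in place of 11, 13, 21, 17, 23 and 34. With replicate number as a block the counts were 7, 9, 20, 17, 23 and 32. Same-numbered arrays deviated together in 25 of 99 pairs (correlation over 0.1), and 8 of 30 arrays correlated best with their own number, so the numbers were not taken as pairs. Without the dimmest 40% of genes, 24 members remained, and 7 passed on soy, 12 on casein, 11 for the difference, 13 for diet in wild type and 20 for diet in HCM. Leaving out an array gave 5 to 15 for the mean effect, 6 to 14 on soy, 19 to 23 on casein, 16 to 21 for the difference, 20 to 25 and 29 to 35 for diet in wild type and HCM, and 0 for both sex comparisons. The mean effect had 5 without male soy HCM replicate 3, 6 without male casein wild-type replicate 3, female soy HCM replicate 1 or female soy wild-type replicate 3, and 7 if any of male soy HCM replicate 2, male casein HCM replicate 2, female casein wild-type replicate 3 or female soy wild-type replicate 4 was left out. The soy count was 6 without male soy HCM replicate 3 and 8 without female soy HCM replicate 3 or female soy wild-type replicate 4. With the probe set of lowest mean, signs turned for the mean effect of Ctse (-0.080) and Ctsc (-0.015), on soy for Timp2 (-0.28), Ctse (-0.11) and Adam5 (0.037), on casein for Ctsc (-0.0058) and Adam5 (-0.11), for the difference of Adam5 (-0.15) and Timp1 (0.0074), for diet in wild type of Adam5 (0.059) and Timp1 (0.15), and for diet in HCM of Timp1 (0.16), Mmp9 (0.071) and Ctsb (-0.25). Quantile normalization turned Ctsb for diet in wild type (-0.029) and HCM (-0.082). The causes were not tested. Shares of all genes under these settings are not given here, so the member counts of this section are not set against the whole array. Of the values of single called members, 558 of 673 kept sign and call under alternatives other than leaving out an array, and 1935 of 2070 did when an array was left out, where none turned sign.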
